A study of Homo sapiens with 6 samples.

Results

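Proteins bound for the endoplasmic reticulum (ER) membrane or lumen need machines that recognise, deliver, insert and trim them, and 42 human genes of these machines are described here. They comprise the signal recognition particle (SRP) and its receptor, the SEC61 channel with its helpers, signal peptidase, the ER membrane protein complex (EMC) and the GET pathway. Members were found by gene symbol, through probe sets that the platform annotation pairs with exactly 1 symbol, and the value of a gene was the mean of its probe sets. In this way 40 of the 42 members were measured, with 110 probe sets, among 18132 genes in all. SEC61G and UBL4A had no such probe set and were not analysed here. The list and its division into complexes were selected on known function, but with the log2 differences of these same arrays in view, above all that of SRP14. The differences below are therefore a description of the members and not an independent test of them.

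The cells are labelled TPC-1, a human papillary thyroid carcinoma line. A lentivirus delivered an shRNA against FAM60A, now named SINHCAF and part of the SIN3 histone deacetylase complex, or a control shRNA. Each group had 3 samples, 1 Affymetrix array per sample, all grown in the same medium. The shRNA sequence, the time after infection and the number of separate cultures are unknown here, so the spread between arrays can be technical. Deposited values were log2 values set relative to each probe set's median over the 6 arrays. A value therefore gives a difference between arrays, and the expression level can be read only as a coarse class (2 to 4, 4 to 8, or 8 and above on the log2 scale). Each difference is the FAM60A-labelled mean minus the control-labelled mean, and fewer cells or less RNA per cell cannot be told apart in such bulk RNA.

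SINHCAF itself was 1.24 (SE 0.038) higher on the log2 scale in the arrays labelled FAM60A shRNA (limma, adjusted p = 1.08e-06, n = 3 per group), against the direction of the label. No direction below can thus be read as following a loss of SINHCAF. Whether the group labels are exchanged was not tested, and an exchange would turn every direction and signed value below. The cell line is also unsettled, since the labels name TPC-1 and the extraction protocol names the colorectal line DLD1. Of 9 measured thyroid markers, 0 were higher and 2 (22.2%) lower, which is no more than the 25.0% of all genes that were lower, and the list mean ran from 0.06 to 0.08 in the arrays labelled control and from -0.11 to -0.07 in the others. The 2 lower ones were HHEX (-0.97) and GLIS3 (-0.18). Of these 9 genes, 1 reached the level class of 8 or more, as did 36.5% of all genes. Of 10 intestinal markers, listed because of the name DLD1, 7 (70.0%) were higher and 0 lower, beside 19.8% of all genes higher. The list means were -0.45 to -0.44 and 0.43, and 3 of these 10 genes reached the level class of 8 or more. The signal of the 3′ minus the 5′ probe sets of GAPDH differed between groups by -0.01 and that of ACTB by -0.03 on the log2 scale. The part of the marker differences in the results below was not tested.

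A protein with a signal peptide or a first membrane segment is recognised by SRP as it leaves the ribosome. SRP slows translation and docks at its receptor, and the ribosome is passed to the SEC61 channel, where signal peptidase cuts the signal peptide. Proteins with a membrane anchor at the very end cannot use this route and are delivered after synthesis by the GET pathway, while the EMC inserts segments that SEC61 handles poorly. Secretory cells depend strongly on these routes, and several of their genes are known targets of the unfolded protein response, through XBP1 and ATF6.

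Promoter windows of the members were read for letters that this response is known to use. A match of letters does not show binding, which was not tested. RefSeq-based windows (GRCh38.p14), reaching from 250 bases before to 50 after a start site, were at hand for 36 of the 42 members, 47 windows in all. They were searched on both strands for the core of the unfolded protein response element, TGACGTGG, for the ER stress element (CCAAT, any 9 bases, CCACG), for its second form (ATTGG, any base, CCACG) and for the ATF4 sites TTGCATCA and TTTCATCA. The element core was present in 4 windows (8.51%), those of SEC62, SRP19, SSR3 and SSR4, against 0.729% of 35116 windows of this length over the genome. Both forms of the ER stress element were in 0 member windows, and in 0.0769% and 0.0541% of all. TTTCATCA was in the window of SRPRB alone (1.11% of all windows) and TTGCATCA in none of the member windows (0.866% of all). The element core, read on its other strand, shares the letters CCACG with both forms of the ER stress element.

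The windows of SRP14, the member with the largest difference, and of the 4 members with the element core are printed 5′ to 3′ on the strand of the gene. Capitals mark the core, which reads CCACGTCA on this strand in all 4, and the window of SRP14, like that of its other listed start site, holds none of the motifs. They lie at chr15:40039153-40039452 on the minus strand (SRP14), chr3:169966557-169966856 on the plus strand (SEC62), chr5:112861037-112861336 on the plus strand (SRP19), chr3:156554076-156554375 on the minus strand (SSR3) and chrX:153794418-153794717 on the plus strand (SSR4). The core begins at position -17 from the start site in SEC62, -112 in SRP19, -41 in SSR3 and -129 in SSR4. SSR3 and SSR4 have other listed start sites whose windows lack it.
SRP14: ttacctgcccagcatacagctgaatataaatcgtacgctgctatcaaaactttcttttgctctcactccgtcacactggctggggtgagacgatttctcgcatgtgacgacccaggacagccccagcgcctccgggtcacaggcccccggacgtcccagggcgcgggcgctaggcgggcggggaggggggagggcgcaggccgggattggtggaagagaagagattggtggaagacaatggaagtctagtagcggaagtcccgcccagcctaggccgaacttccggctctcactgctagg
SEC62: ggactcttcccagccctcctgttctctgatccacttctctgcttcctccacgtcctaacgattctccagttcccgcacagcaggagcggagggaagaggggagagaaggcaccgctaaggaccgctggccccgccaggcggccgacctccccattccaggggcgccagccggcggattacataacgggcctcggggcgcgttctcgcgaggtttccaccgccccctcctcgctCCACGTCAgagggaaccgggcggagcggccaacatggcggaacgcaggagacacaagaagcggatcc
SRP19: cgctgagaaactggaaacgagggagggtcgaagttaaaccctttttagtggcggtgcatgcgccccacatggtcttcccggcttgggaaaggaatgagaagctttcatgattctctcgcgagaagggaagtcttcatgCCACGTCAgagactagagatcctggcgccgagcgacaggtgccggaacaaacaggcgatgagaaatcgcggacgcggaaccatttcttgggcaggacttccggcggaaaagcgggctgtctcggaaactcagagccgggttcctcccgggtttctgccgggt
SSR3: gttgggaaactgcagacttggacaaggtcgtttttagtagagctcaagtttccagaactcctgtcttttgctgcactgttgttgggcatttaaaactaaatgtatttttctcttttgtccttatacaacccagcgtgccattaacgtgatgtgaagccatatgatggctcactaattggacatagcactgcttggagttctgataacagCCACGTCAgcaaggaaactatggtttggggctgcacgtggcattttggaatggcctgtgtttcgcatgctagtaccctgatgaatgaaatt
SSR4: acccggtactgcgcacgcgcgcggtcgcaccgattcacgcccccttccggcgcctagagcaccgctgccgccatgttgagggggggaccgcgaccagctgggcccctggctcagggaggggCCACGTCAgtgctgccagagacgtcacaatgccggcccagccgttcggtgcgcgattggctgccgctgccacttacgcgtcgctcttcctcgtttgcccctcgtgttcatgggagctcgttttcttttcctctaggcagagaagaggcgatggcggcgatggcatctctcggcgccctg
The 4 genes with the core did not move alike: SSR3 and SEC62 were higher in the arrays labelled FAM60A shRNA, SRP19 was lower, and SSR4 did not pass the threshold.

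Most of the ER entry machinery was lower in the arrays labelled FAM60A shRNA, with the EMC and GET1 leading, whereas SRP14, SEC61A1, SEC63, SEC62, SSR3, EMC9 and SGTA were higher. Of 40 members, 24 were lower and 7 higher at an adjusted p under 0.05 (limma over all genes), and 9 did not pass. Over all genes 44.9% passed, 25.0% lower and 19.8% higher, against 77.5% of the members. The members are brightly expressed, with 63.6% of their probe sets at 8 or more against 24.4% of all those with 1 symbol. Among the 6610 genes that reached that class 67.1% passed, and among the 37 such members 29 (78.4%). Nothing is read from these shares, since the members were chosen with this comparison known. The median log2 difference was -0.19 over the members and -0.012 over all genes, and the median absolute difference was 0.275 and 0.118. The calls nearest the threshold were SEC62 inside (adjusted p = 0.0336) and SEC61A2 outside (adjusted p = 0.0691).

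**Figure D1:**
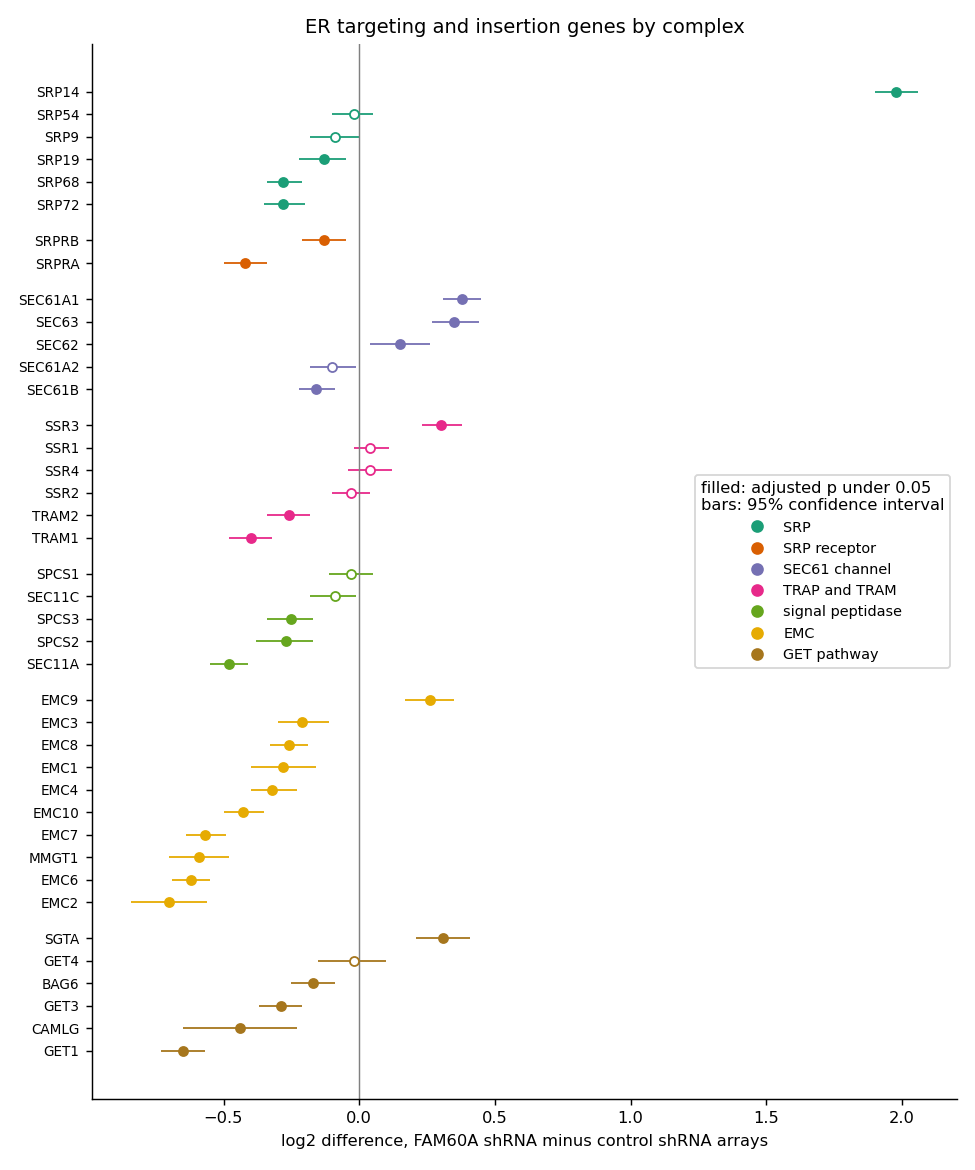
Log2 difference of each of the 40 measured genes (x axis, arrays labelled FAM60A shRNA minus control shRNA) by complex, with 95% confidence intervals from limma. SRP14 lies at 1.98, apart from all others, which lie between -0.70 and 0.38. Filled points passed an adjusted p under 0.05.

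SRP14 was higher, while of the other 5 subunits of its particle 3 (60.0%) were lower and 2 did not pass. All 6 have a probe set at 8 or more, and 67.1% of all genes in that class passed, in either direction. SRP is built on an RNA, with SRP9 and SRP14 as a dimer on its Alu domain, where they slow translation. Its log2 value in the control-labelled arrays was -1.01, -0.98 and -0.99, and in those labelled FAM60A shRNA it was 1.01, 1.01 and 0.94. The groups lay far apart with little spread within either. The difference between group means was 1.98 (SE 0.034) on the log2 scale. It corresponds to a 3.94-fold change (95% interval 3.73 to 4.17) and ranked 24 of 18132 genes from the top. SRP14 (Entrez gene 6727, chromosome 15) has 3 probe sets on the array, which gave 2.11 (SE 0.050), 1.93 (SE 0.063) and 1.90 (SE 0.049), all close together. The level class was 8 or more for the last pair and could not be read for the first.

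SRP9, with which SRP14 forms its dimer, showed no comparable difference. Its values were 0.09, 0.02 and 0.00 in the control-labelled arrays and -0.05, 0.00 and -0.10 in those labelled FAM60A, which gives a log2 difference of -0.09 (SE 0.040) that did not pass. Its single probe set was in the class of 8 or more. The difference between the partners, SRP14 minus SRP9, moved from -1.03 ± 0.057 to 1.04 ± 0.024 (SD, n = 3 each).

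The subunits of the other end of the particle were lower or near 0. SRP54, the GTPase that binds the signal sequence, had a log2 difference of -0.02 (SE 0.032) with overlapping groups. SRP19, which helps SRP54 onto the RNA, was lower by a log2 difference of -0.13, a call that was lost when either of control replicates 1 and 2 or FAM60A replicate 3 was left out (-0.13 to -0.11) and after cyclic loess (-0.11). SRP68 and SRP72, which form a dimer of their own, were lower to the same extent, at -0.28 (SE 0.029) and -0.28 (SE 0.032). SRP68 was 0.15, 0.14 and 0.14 in the control-labelled arrays and -0.15, -0.13 and -0.12 in the others. For SRP72 the values were 0.13, 0.14 and 0.14 against -0.11, -0.13 and -0.18, again without overlap.

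Set against the mean of SRP9, SRP19, SRP54, SRP68 and SRP72 in the same array, SRP14 was -1.10, -1.06 and -1.05 in the control-labelled arrays and 1.08, 1.07 and 1.05 in those labelled FAM60A. The difference between the groups was 2.14, against 1.98 for SRP14 alone. The median over the 6 subunits was -0.11, and over the 5 without SRP14 it was -0.13.

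Both subunits of the SRP receptor, which docks SRP at the ER membrane, were lower. SRPRA, the GTPase that pairs with SRP54, was 0.19, 0.19 and 0.24 in the control-labelled arrays and -0.24, -0.23 and -0.17 in the others, a log2 difference of -0.42 (SE 0.034). All 5 of its probe sets were lower, between -0.52 and -0.30. SRPRB, its membrane anchor, was lower by less, at -0.13 (SE 0.034), with probe sets at -0.24, -0.22 and 0.08. Its call was lost without control replicate 3 (-0.11), without FAM60A replicate 1 or 2 (-0.12 each) and when x_at and s_at probe sets were dropped (-0.07).

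**Figure D2:**
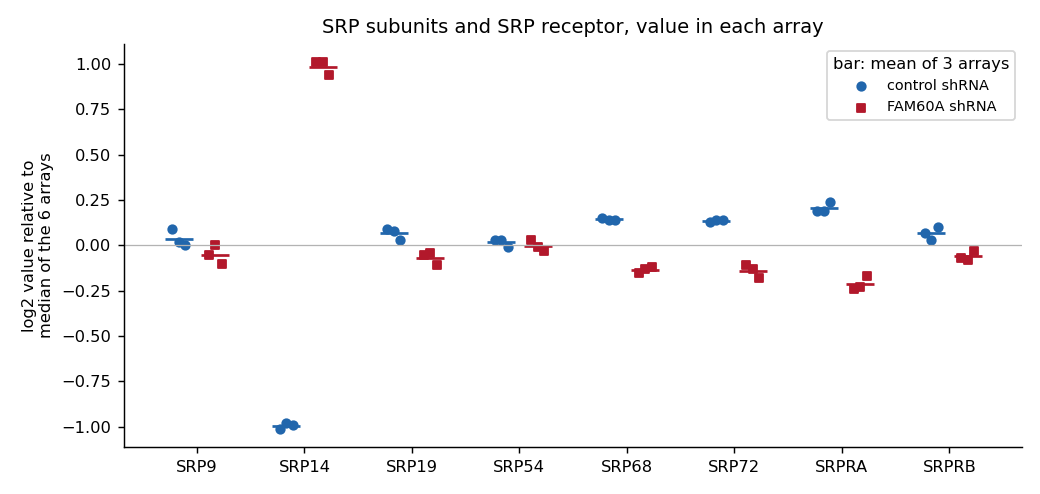
Log2 value relative to the median of the 6 arrays (y axis) for the SRP subunits and the SRP receptor, with 3 control shRNA arrays (circles), 3 FAM60A shRNA arrays (squares) and the mean of each group (bars). SRP14 lies near -1 in the control-labelled arrays and near 1 in the others, while all other subunits stay within 0.24 of 0. The groups overlap for SRP54. The remaining subunits lie in the opposite order to SRP14, SRP9 by a narrow margin.

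The pore-forming subunit SEC61A1 of the SEC61 channel was higher, and SEC61B, the measured one of its small subunits, was lower. SEC61A1, which forms the pore, was -0.22, -0.20 and -0.17 in the control-labelled arrays and 0.19, 0.18 and 0.18 in the others, and its 3 probe sets lay between 0.28 and 0.49. The log2 difference was 0.38 (SE 0.030), a 1.30-fold higher signal. Its paralogue SEC61A2 had -0.10 and did not pass, but passed without control replicate 1 (-0.12). The distance between the paralogues, SEC61A1 minus SEC61A2, went from -0.26 ± 0.053 to 0.22 ± 0.017 (SD, n = 3 each). SEC61B, the tail-anchored beta subunit, was lower at -0.16 (SE 0.029), with values of 0.07, 0.08 and 0.08 against -0.07, -0.10 and -0.08.

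SEC63 and SEC62, which serve entry after translation, were higher, but not in all of their probe sets. SEC63, whose J domain recruits the chaperone BiP to the channel, had a log2 difference of 0.35 (SE 0.036), made up of 1 probe set at 0.87 in the class of 4 to 8 and 2 at 0.08 and 0.10 in the class of 8 or more. The gene mean therefore rests on the first, and with the median of the probe sets the difference was 0.12. SEC62 had 0.15 (SE 0.047) over 9 probe sets that ran from -0.02 to 0.54. Its call was lost without control replicate 2 or 3 (0.13 each), without FAM60A replicate 1 or 2 (0.12 and 0.15), with the median of the probe sets (0.11) and without the x_at and s_at probe sets (0.10).

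Of the translocon-associated proteins, 1 of 4 TRAP subunits passed, and the TRAM proteins were both lower. Among these 6 genes, 3 passed in either direction. Each has a probe set at 8 or more, a class in which 67.1% of all genes passed. TRAP binds SEC61 and helps certain signal peptides to open the channel. Of its 4 subunits, SSR1 (0.04), SSR2 (-0.03) and SSR4 (0.04) did not pass, with 95% confidence intervals of -0.02 to 0.11, -0.10 to 0.04 and -0.04 to 0.12. SSR3 was higher at 0.30 (SE 0.032), with values of -0.12, -0.17 and -0.17 against 0.16, 0.15 and 0.13. Its 4 probe sets disagreed, at 0.69, 0.54, 0.11 and -0.13, although 3 of them are in the class of 8 or more. The 8 probe sets of SSR1 also ran in both directions, from -0.14 to 0.24, and SSR1 was past the threshold with its probe set of largest variance (0.24) or without the x_at and s_at probe sets (0.14). The cause was not tested.

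TRAM1, which lies beside the channel and helps some membrane segments to leave it, was lower in each of its 3 probe sets. It was 0.24, 0.20 and 0.17 in the control-labelled arrays and -0.17, -0.20 and -0.22 in the others, a log2 difference of -0.40 (SE 0.034). TRAM2, its paralogue, was lower at -0.26 (SE 0.034), with probe sets from -0.47 to -0.10.

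Signal peptidase was lower in 3 of 5 subunits (60.0%), led by a catalytic one. All 5 have a probe set at 8 or more, and 67.1% of all genes in that class passed, in either direction. SEC11A, a serine-type catalytic subunit, was 0.26, 0.23 and 0.22 in the control-labelled arrays and -0.22, -0.24 and -0.26 in the others, and its 4 probe sets lay between -0.56 and -0.42. Its log2 difference was -0.48 (SE 0.030), a 1.39-fold lower signal. SEC11C, the alternative catalytic subunit, had -0.09 (SE 0.035) and did not pass. SEC11A minus SEC11C went from 0.18 ± 0.030 to -0.20 ± 0.019 (SD, n = 3 each), without overlap. Of the non-catalytic subunits, SPCS2 (-0.27, SE 0.045) and SPCS3 (-0.25, SE 0.036) were lower and SPCS1 (-0.03) did not pass. The probe sets of SPCS3 disagreed, at -0.46 in the class of 4 to 8 and at -0.31 and 0.01 in the class of 8 or more. SPCS2 lost its call without the x_at and s_at probe sets (-0.05), which left 1 of its 3. SPCS1 had -0.10 and passed when its s_at probe set, which is also its probe set of the lowest class, was left out.

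All 10 EMC genes were past the threshold, 9 of them lower and EMC9 higher. Over all genes 44.9% passed, 25.0% lower, and 67.1% of those with a probe set at 8 or more passed. The median log2 difference of the EMC was -0.37. The mean of the 9 lower genes was 0.24, 0.21 and 0.19 in the control-labelled arrays and -0.21, -0.24 and -0.23 in the others. In none of the 10 genes did the groups overlap, beside 53.2% of all genes without overlap. EMC3, with relatives among the insertases of bacteria and mitochondria, forms with EMC6 the core that moves a segment into the membrane. EMC6 was lower by a log2 difference of -0.62 (SE 0.030), with values of 0.29, 0.32 and 0.32 against -0.29, -0.33 and -0.31. EMC3 was lower by less, at -0.21 (SE 0.039), with values of 0.14, 0.08 and 0.07 against -0.07, -0.17 and -0.10. Each has 1 probe set, in the class of 8 or more.

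EMC2, a cytosolic scaffold of the complex, had the lowest gene mean of the 40 members, although GET1 was lower in some of its probe sets. EMC2 was 0.36, 0.30 and 0.28 in the control-labelled arrays and -0.37, -0.50 and -0.28 in the others, a log2 difference of -0.70 (SE 0.058) and a 1.62-fold lower signal, from 1 probe set in the class of 4 to 8. MMGT1, which encodes the EMC5 subunit, was lower at -0.59 (SE 0.048), with probe sets at -0.60 in the class of 8 or more and at -0.58 in the lowest class. EMC7, a subunit with a lumenal domain, was lower at -0.57 (SE 0.032), with values of 0.29, 0.26 and 0.29 against -0.30, -0.31 and -0.26. EMC10, which also has a lumenal domain, was lower at -0.43 (SE 0.031).

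EMC1, the largest lumenal subunit, was lower at -0.28 (SE 0.050). Its 4 probe sets lay at -0.49, -0.41, -0.11 and -0.10, and FAM60A replicate 3, at -0.23, was the lowest of its arrays. EMC4 was lower at -0.32 (SE 0.034), with 3 probe sets of the class of 8 or more between -0.46 and -0.40 and 1 of the lowest class at 0.01. Without the lowest class its difference was -0.42.

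EMC8 and EMC9 are paralogues of which only 1 at a time sits in the complex, and their signals moved in opposite directions. EMC8 was 0.15, 0.11 and 0.13 in the control-labelled arrays and -0.12, -0.15 and -0.13 in the others, a log2 difference of -0.26 (SE 0.030). EMC9 was -0.09, -0.18 and -0.17 against 0.14, 0.09 and 0.13, a log2 difference of 0.26 (SE 0.037). EMC9 minus EMC8 thus went from -0.27 ± 0.031 to 0.25 ± 0.012 (SD, n = 3 each). EMC9 rests on 1 probe set in the class of 8 or more, and EMC8 on 2, at -0.47 in that class and at -0.06 in the class of 4 to 8.

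**Figure D3:**
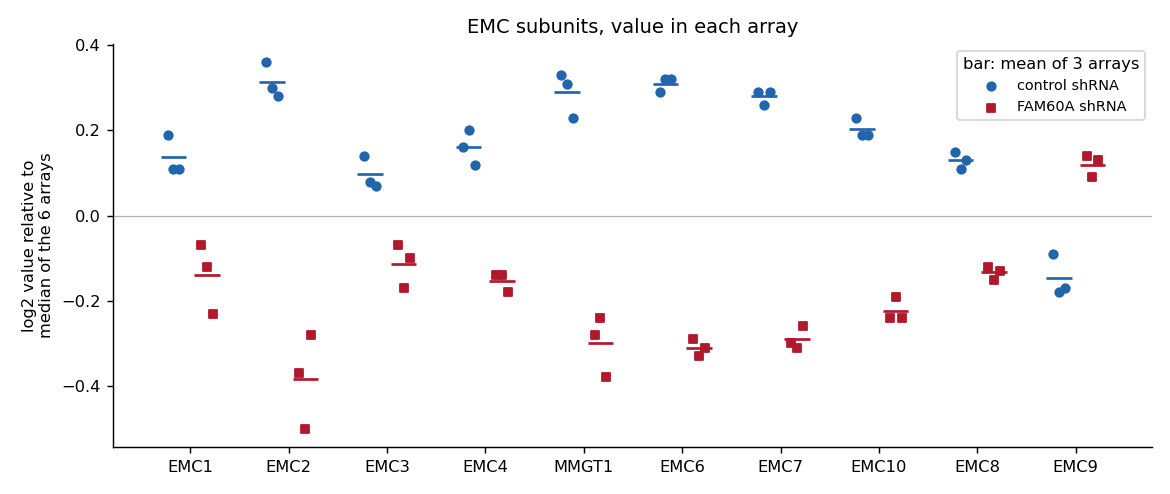
Log2 value relative to the median of the 6 arrays (y axis) for the 10 EMC subunits, with 3 control shRNA arrays (circles), 3 FAM60A shRNA arrays (squares) and the mean of each group (bars). For 9 subunits all control-labelled arrays lie above all others, and for EMC9 the order is turned.

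The GET pathway was lower from the targeting ATPase to the membrane receptor, while its first step was mixed. SGTA, the co-chaperone that takes tail-anchored proteins from the ribosome, was higher at 0.31 (SE 0.042), with values of -0.16, -0.10 and -0.19 against 0.19, 0.10 and 0.20 and probe sets at 0.35 and 0.27. BAG6, a scaffold of the same early step, was lower at -0.17 (SE 0.034). GET4, which tethers BAG6 to GET3, had -0.02 (SE 0.052) with overlapping groups and did not pass. GET3, the ATPase that carries the anchor to the membrane, was lower at -0.29 (SE 0.033), with values of 0.18, 0.12 and 0.18 against -0.14, -0.14 and -0.12.

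GET1 and CAMLG, which together form the receptor at the ER membrane, were lower, and for both the probe sets of the lowest class differed least. GET1 (Entrez gene 7485, chromosome 21) was 0.31, 0.29 and 0.36 in the control-labelled arrays and -0.33, -0.36 and -0.29 in the others, a log2 difference of -0.65 (SE 0.034). Its 6 probe sets form separate sets, 3 in the class of 4 to 8 at -1.28, -1.22 and -1.19 and 3 in the lowest class at -0.12, -0.10 and 0.02. Without the lowest class the difference of GET1 was -1.23, and without the x_at and s_at probe sets it was -0.37. CAMLG had -0.44 (SE 0.091), the largest SE among the members, with control replicate 1 at 0.39 against 0.12 and 0.14 and FAM60A replicate 3 at -0.37 against -0.14 and -0.15. Its probe set in the class of 8 or more gave -0.62 and that in the lowest class -0.26.

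**Figure D4:**
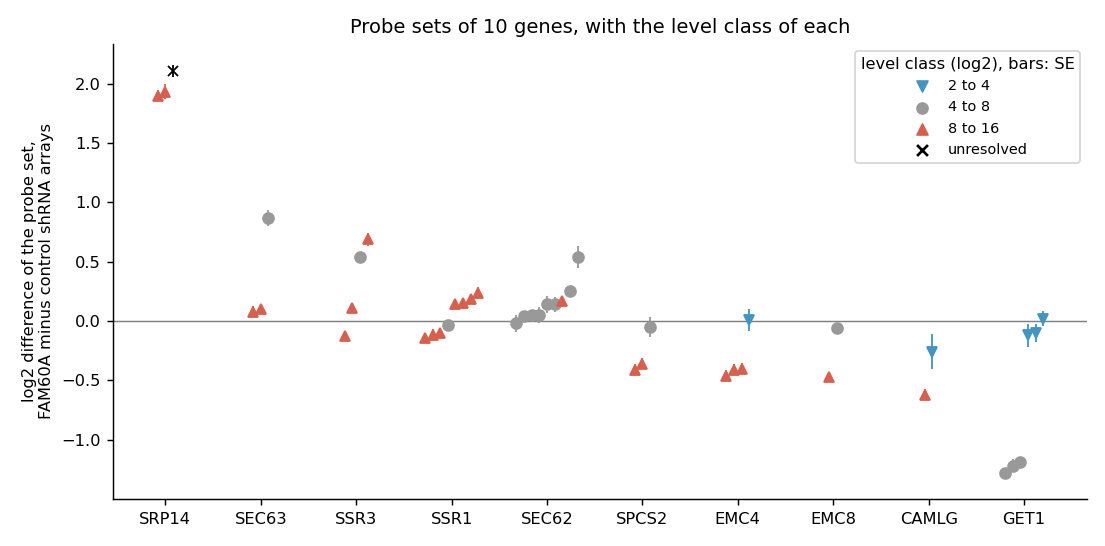
Log2 difference of every probe set (y axis, arrays labelled FAM60A shRNA minus control shRNA, bars show the SE) of 10 genes, with symbols for the level class. The 3 probe sets of SRP14 lie together at 1.90 to 2.11. Those of GET1 fall apart by level class, and those of SSR3 and SSR1 lie on both sides of 0 within 1 class.

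Other genes around the ER entry point were counted in 4 lists by function. Of 30 measured, 15 were lower and 6 higher, so that 70.0% passed. Over all genes 44.9% passed, 25.0% lower and 19.8% higher. Of the 30, 29 have a probe set at 8 or more, and 67.1% of all genes in that class passed, in either direction. The nascent polypeptide-associated complex, which keeps SRP off ribosomes without a signal, had 2 of 3 genes lower, BTF3L4 at -1.57 (SE 0.038) and BTF3 at -0.21 (SE 0.037), while NACA at 0.02 did not pass. Of 7 genes of the multipass translocon and the SND route, all with a probe set at 8 or more, 6 (85.7%) were lower and 0 higher. Among the lower ones were WDR83OS (-0.41), TMEM208 (-0.28) and CCDC47 (-0.22). NOMO1, NOMO2 and NOMO3 share their probe sets in the annotation and were not analysed here.

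The oligosaccharyltransferase, which attaches glycans beside the channel, had both catalytic subunits higher, STT3B at 0.39 (SE 0.039) and STT3A at 0.26 (SE 0.038). Of its 12 genes 5 were lower, OST4 (-0.22) among them. In either direction 58.3% of the 12 passed, beside 44.9% of all genes. Of the 12, 11 have a probe set at 8 or more, and 67.1% of all genes in that class passed. Of 8 genes of the lumenal BiP system, 4 were higher and 2 lower (75.0% past the threshold). All 8 have a probe set at 8 or more, and 67.1% of all genes in that class passed. BiP itself, HSPA5, was 0.99 (SE 0.033) higher and its exchange factor HYOU1 1.04 (SE 0.053) higher, whereas SIL1, the other exchange factor of BiP, was lower at -0.36 (SE 0.031).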

How the data were processed

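RNA of 6 samples, 3 per label, was measured on 1 Affymetrix array each and grouped by title. The deposited log2 values were made by the authors with RMA, per the submitters' processing notes (program and version not given in the sources used here), and the file shows each of 49395 probe sets centred on its median over the 6 arrays. The base of the logarithm was taken as 2, as RMA gives. Centring removes the level, and a coarse level class was read from the rounding step of single-precision values, which doubles at 4, 8 and 16 (rows with fewer than 4 values under 1 are unresolved). A step of 16 or more, in 775 probe sets, was counted with the class of 8 to 16.

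Of the probe sets, 44988 non-control ones had exactly 1 symbol. A gene was the mean of these. The comparison of 3 with 3 arrays used limma 3.58.1 (lmFit, eBayes; R 4.3.3), with p-values adjusted by Benjamini-Hochberg over all 18132 genes, threshold 0.05, and no filter on low values was applied. The script was tested on simulated data. The number of arrays limits the precision.

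Members and lists were chosen with earlier results of these data known. Named were all measured members, up to 3 genes with the smallest p from each other list, and SINHCAF. Protein sequences were not used here.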

Additional observations from a re-analysis of the deposited data

How the results depend on the processing

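Of 40 members, 30 were run under all 13 alternatives and kept their call, and SRP9, SEC11A and EMC10 kept it in the 12 that could be run. The alternatives were 3 other choices of probe sets or summaries, removal of the lowest level class, 2 normalizations, the replicate block and the removal of each array in turn. No member changed direction while past the threshold. The counts over members stayed at 6 to 8 higher and 21 to 25 lower. The split over all genes moved from 3595 higher and 4541 lower to 4063 and 4049 after cyclic loess, where the median of all genes was 0.014 in place of -0.012. The complex medians above were -0.11 (SRP), -0.27 (SRP receptor), 0.15 (SEC61), 0.01 (TRAP and TRAM), -0.25 (signal peptidase), -0.37 (EMC) and -0.23 (GET). With the probe set of largest variance, they became -0.38 (SRP receptor), 0.49 (SEC61), -0.41 (signal peptidase), -0.48 (EMC) and -0.26 (GET), and SRP14 minus the other SRP subunits became 2.30. With the median of the probe sets they became -0.31 (signal peptidase), -0.40 (EMC) and 2.07 (SRP14 minus the other SRP subunits). Without the x_at and s_at probe sets, which left 37 members, the medians were -0.17 (SRP), -0.23 (SRP receptor), -0.10 (signal peptidase) and -0.34 (EMC). Without the lowest level class the EMC median was -0.42. Quantile normalization of the centred values gave 1.85 for SRP14 minus the other SRP subunits, 1.71 for SRP14 itself and 0.03 for TRAP and TRAM, and cyclic loess 0.03 for TRAP and TRAM and -0.20 for GET. The causes were not tested.

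The replicate numbers were not shown to pair the arrays, since the correlations of same-numbered deviations were 0.161, 0.059 and 0.078, although every array correlated best with its own number. The replicate block gave 3630 genes higher and 4540 lower and changed no call of a member. With 1 array left out, SRP19, SRPRB and SEC62 lost their call in some of the removals and SEC61A2 gained one. Level classes, and not signal over background, are all that these values give on dim probe sets.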
